A study of Mus musculus with 12 samples.

Results

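The genes described here are 37 mouse genes of glycolysis and of the transcriptional response to low oxygen: glucose transporters, the enzymes from hexokinase to pyruvate kinase, the enzymes and carriers that handle pyruvate and lactate, the subunit HIF-1α with its oxygen sensors, and further genes known to be induced by hypoxia. They were taken as the rows of the expression table that name exactly 1 of these genes, with the brightest row over the 12 arrays where a gene had several. On this rule 32 of the 37 genes were measured, out of 22180 genes in all. Aldoa, Bnip3l and Ankrd37 stood only on rows shared with other symbols, and Gpi1 and Eno1 had no row under those names, so these 5 genes have no value here. All 32 measured genes passed a filter on dim signals (a mean log2 signal of at least 5 in some group), with log2 signals between 6.829 and 13.4 on the single arrays.

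Mouse T cells were cultured and sorted, and 12 Affymetrix arrays of their RNA form 4 groups of 3. Natural regulatory T cells (nTregs), taken from the spleens of B6.Foxp3GFP mice, were cultured at 1 nTreg to 10 effector T cells with Treg-depleted T cells of B6.Foxp3GFP x B6.CAGDSRED mice, although every array, nTregs included, carries the strain label of a cross between B6.Foxp3GFP and B6.Cg-Tg(CAG-DsRed*MST)1Nagy/J. All cultures were activated for 2 days with beads carrying anti-CD3 and anti-CD28 and with human IL-2 at 500 U/mL, after which 1 µM azacitidine (AzaC), an inhibitor of DNA methyltransferases, or PBS as the vehicle was present for 2 days. nTregs were sorted as CD4-positive, DsRed-negative, Foxp3-GFP-positive cells, and CD4 effector cells (CD4 cells below) as CD4-positive, DsRed-positive, Foxp3-GFP-negative cells, which gives the groups CD4 PBS, CD4 AZA, nTreg PBS and nTreg AZA. Both populations shared a culture, and the oxygen level, the ages of the mice and the number of cells per array are not stated in the labels. The labels number the arrays of a group 1 to 3 without naming a mouse or a culture, and a p-value here refers to the variation among such arrays, which may be technical.

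Glycolysis splits glucose into pyruvate, and activated T cells are known for running it fast and turning much of the pyruvate into lactate even when oxygen is present. The transcription factor HIF-1 pairs the oxygen-regulated subunit HIF-1α with a stable partner, binds short DNA words around ACGTG or GCGTG and raises the transcription of most glycolytic genes together with genes of oxygen sensing, mitophagy and collagen modification. In mouse T cells HIF-1α and glycolysis are known to favour effector fates, while regulatory T cells rely more on mitochondrial oxidation.

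The labelled populations were checked against their marker genes. The mean log2 signal of Foxp3, the lineage factor of regulatory T cells, was 12.34 ± 0.31 (SD, n = 3) in nTreg PBS against 8.05 ± 0.24 in CD4 PBS. Of 10 T cell and Treg genes, 4 were higher and 2 lower in nTregs under PBS (3.90% and 4.12% of all genes), with 6 below 0. The 4 were Foxp3, Ikzf2, Il2ra and Ctla4. Cd4, a sort marker of both populations, was 10.84 ± 0.41 in nTreg PBS against 11.68 ± 0.04 in CD4 PBS. For Cd3e the values were 12.33 ± 0.47 and 13.11 ± 0.01. Other marker genes moved with the drug. Foxp3 rose by 1.57 with AzaC in the Foxp3-GFP-negative CD4 cells, as did Il2ra, the IL-2 receptor chain CD25, by 0.59. In nTregs both CD8 genes rose with AzaC, Cd8a by 1.39 and Cd8b1 by 0.72, as did Eomes, a factor of NK and cytotoxic T cells, by 0.96, and the myeloid integrin Itgam fell by 0.94. The summed level of the 2 CD8 genes ran from 10.347 to 10.687 in nTreg PBS and from 11.245 to 11.372 in nTreg AZA, without overlap; in CD4 PBS it ran from 10.136 to 10.401 and in CD4 AZA from 9.738 to 10.312. In nTregs the summed level of 12 myeloid genes ran from 9.871 to 10.015 with PBS and from 9.602 to 9.727 with AzaC, with 6 of the 12 lower on all AzaC arrays. That of 5 NK and gamma-delta T cell genes ran from 9.275 to 9.407 and from 9.622 to 9.783, and that of 7 erythroid and platelet genes from 9.609 to 9.679 and from 9.426 to 9.554, also without overlap. The sum of 10 T cell and Treg genes in nTregs ran from 15.369 to 15.548 with PBS and from 15.563 to 15.57 with AzaC, again without overlap. Of the 5 NK and gamma-delta T cell genes, however, 2 were higher and 3 lower with AzaC in nTregs, with a median difference of -0.12. In CD4 cells the NK sum ran from 9.512 to 9.593 with PBS and from 9.654 to 9.943 with AzaC, and the sum of 10 T cell genes from 15.328 to 15.363 and from 15.26 to 15.313; the part of these markers in the results was not tested. The least typical array was nTreg PBS 1, whose mean correlation with the other 11 arrays was 0.9725. The next lowest, CD4 PBS 3, had 0.9793, and the remaining 10 had 0.9831 to 0.9872. It was the lowest array of its group for 27 of the 32 genes, where 36.6% of all genes had it lowest, and the counts and medians over the 32 genes are given without it as well at the end of each comparison that it moves.

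Promoter sequences are shown for the 4 genes that fell with AzaC in CD4 cells and for Slc16a1, which rose in nTregs. That of Ldha, a textbook HIF-1 target, is shown as well. Ldha passed in none of the comparisons, on a row of modest signal whose reading of the gene was not tested. The sequences are those of RefSeq on GRCm38.p6, from 250 bases before to 50 after the annotated start, printed 5′ to 3′ on the strand of the gene. Capitals mark each ACGTG or GCGTG on either strand, the words at the core of the HIF site. They lie at chr11:54100674-54100973 for P4ha2, chr11:78322823-78323122 for Aldoc, chrX:106186850-106187149 for Pgk1, chr2:71872974-71873273 for Pdk1, chr3:104638414-104638713 for Slc16a1 and chr7:46845554-46845853 for Ldha, all on the plus strand. Where a gene has several annotated starts, the first in the table is shown.
P4ha2: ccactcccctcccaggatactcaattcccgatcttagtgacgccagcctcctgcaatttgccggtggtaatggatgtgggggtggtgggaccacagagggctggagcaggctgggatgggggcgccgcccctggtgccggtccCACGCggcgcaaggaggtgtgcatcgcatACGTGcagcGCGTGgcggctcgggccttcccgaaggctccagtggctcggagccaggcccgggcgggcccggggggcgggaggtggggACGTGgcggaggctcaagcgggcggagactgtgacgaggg
Aldoc: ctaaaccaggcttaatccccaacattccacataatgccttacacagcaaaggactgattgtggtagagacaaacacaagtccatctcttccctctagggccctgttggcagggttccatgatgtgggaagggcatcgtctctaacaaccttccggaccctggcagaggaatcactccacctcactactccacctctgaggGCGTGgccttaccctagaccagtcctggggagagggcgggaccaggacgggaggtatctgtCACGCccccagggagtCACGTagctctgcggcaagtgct
Pgk1: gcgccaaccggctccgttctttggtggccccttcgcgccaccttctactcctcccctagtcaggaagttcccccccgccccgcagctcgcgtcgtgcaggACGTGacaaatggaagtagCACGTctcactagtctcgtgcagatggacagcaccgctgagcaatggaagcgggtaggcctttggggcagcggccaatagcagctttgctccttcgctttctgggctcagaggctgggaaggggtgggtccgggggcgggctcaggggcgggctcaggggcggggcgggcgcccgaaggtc
Pdk1: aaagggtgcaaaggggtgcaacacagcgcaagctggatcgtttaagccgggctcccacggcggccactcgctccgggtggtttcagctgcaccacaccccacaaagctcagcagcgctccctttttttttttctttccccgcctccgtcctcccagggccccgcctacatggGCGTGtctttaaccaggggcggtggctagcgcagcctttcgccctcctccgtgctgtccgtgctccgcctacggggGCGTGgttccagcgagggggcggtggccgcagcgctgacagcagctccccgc
Slc16a1: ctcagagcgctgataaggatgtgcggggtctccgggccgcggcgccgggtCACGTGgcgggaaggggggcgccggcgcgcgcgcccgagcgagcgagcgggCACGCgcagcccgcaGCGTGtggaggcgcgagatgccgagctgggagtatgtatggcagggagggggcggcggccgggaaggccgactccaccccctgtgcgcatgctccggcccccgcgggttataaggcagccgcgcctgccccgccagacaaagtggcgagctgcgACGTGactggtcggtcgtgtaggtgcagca
Ldha: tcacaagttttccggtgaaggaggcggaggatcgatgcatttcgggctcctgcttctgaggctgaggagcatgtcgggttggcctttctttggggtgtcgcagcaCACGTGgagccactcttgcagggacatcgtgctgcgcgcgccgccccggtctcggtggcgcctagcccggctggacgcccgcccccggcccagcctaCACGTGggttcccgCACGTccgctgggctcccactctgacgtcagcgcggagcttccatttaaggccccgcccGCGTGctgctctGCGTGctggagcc

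The 2 words occurred 4 times in the P4ha2 promoter, 3 times in that of Aldoc, 2 times each in those of Pgk1 and Pdk1, 5 times in that of Slc16a1 and 7 times in that of Ldha. Slc16a1 and Ldha also hold the palindrome CACGTG, 1 and 2 times, each of which counts as 2 overlapping matches of ACGTG, 1 on each strand. Of the 32 measured genes 29 had a promoter in the table; Slc2a3, Ndrg1 and Bhlhe40 did not. Of those 29 genes 27 (93.1%) held a word in at least 1 of their promoters, against 52.3% of 17492 protein-coding genes, and Tpi1 and Eno2 held none. Counted by promoter, 36 of 46 (78.3%) held a word, against 49.3% of 21263 promoters of protein-coding genes and 43.8% of all 32851 promoters. A matching word is a description of the letters and not evidence of binding.

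**Figure D1:**
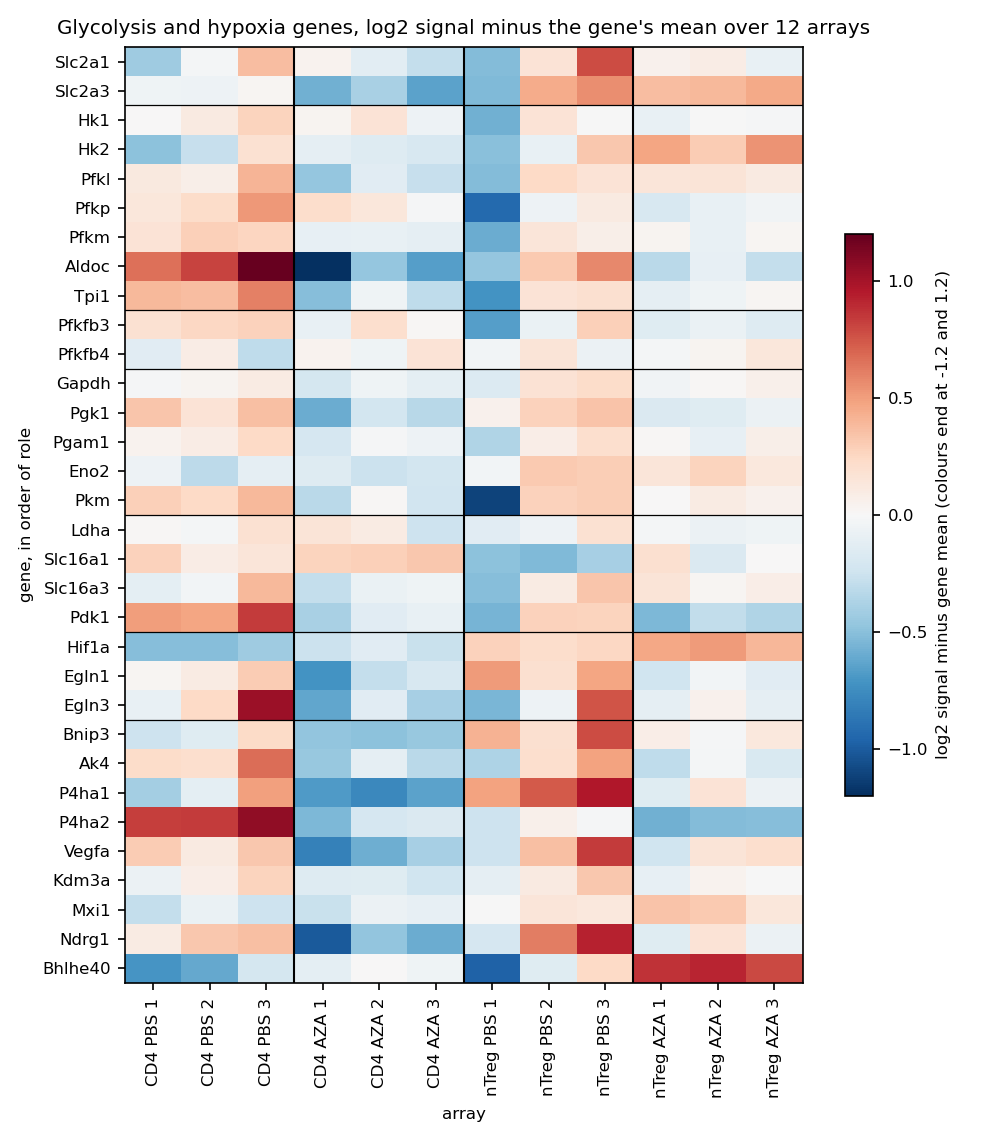
Log2 signal of the 32 measured genes (rows, in order of role) on the 12 arrays (columns, by group), each drawn as its difference from the mean of that gene over all arrays. The CD4 AZA arrays are low for most genes, and nTreg PBS 1 is the lowest array of its group for 27 of the 32.

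The first question was what AzaC did to these genes in CD4 effector cells. With AzaC 4 of the 32 genes fell and none rose at an adjusted p under 0.05 (limma, Benjamini-Hochberg over all 22180 genes): P4ha2, Aldoc, Pgk1 and Pdk1. Across all genes 1.76% were called in this comparison, 0.933% lower and 0.830% higher. The log2 difference was below 0 for 26 of the 32 genes, with a median of -0.30, where the median of all genes was 0.01. At an unadjusted p under 0.05 stood 17 of the 32, against 15.2% of all genes. In 19 genes all 3 CD4 AZA arrays lay below all 3 CD4 PBS arrays, against 12.2% of all genes, and in 2 genes, Hif1a and Bhlhe40, they lay above, against 11.4% of all genes. In these bulk samples less RNA per cell and fewer expressing cells cannot be told apart.

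Of the glucose transporters, Slc2a3 (GLUT3) had log2 signals of 10.15, 10.14 and 10.22 in CD4 PBS and of 9.62, 9.81 and 9.56 in CD4 AZA. All 3 treated arrays were lower, but the difference of -0.51 (SE 0.21) did not pass (adjusted p = 0.264). Slc2a1 (GLUT1), the main transporter of activated T cells, stood at 10.85 ± 0.40 (SD, n = 3) with PBS and 10.76 ± 0.16 with AzaC.

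Among the enzymes of upper glycolysis, Aldoc, an aldolase that splits the 6-carbon sugar, had the largest difference of the 32 genes. Its log2 signal was 10.42, 10.58 and 10.97 in CD4 PBS and 8.5, 9.30 and 9.10 in CD4 AZA. Every AzaC array lay below every PBS array, and Aldoc fell 3.23-fold, a log2 difference of -1.69 (SE 0.25, 95% interval -2.22 to -1.16, adjusted p = 0.00265). Its call held under all 21 alternatives, with differences from -1.86 to -1.46. Tpi1, the triose phosphate isomerase of the next step, went from 12.87 ± 0.13 to 12.13 ± 0.23 without overlap and did not pass (-0.74, adjusted p = 0.0842). The phosphofructokinases Pfkl (-0.49, adjusted p = 0.192) and Pfkm (-0.34, adjusted p = 0.315) also had groups that did not overlap, and Pfkp had not. The hexokinases Hk1 (8.62 ± 0.13 to 8.53 ± 0.11) and Hk2 (7.48 ± 0.35 to 7.52 ± 0.04) differed by less than 1 SD of the PBS arrays. Pfkfb3 and Pfkfb4, whose product switches phosphofructokinase on, gave -0.19 and 0.17, and neither passed.

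In lower glycolysis Pgk1, the kinase that makes the first ATP of the pathway, had log2 signals of 12.88, 12.72 and 12.91 in CD4 PBS and of 11.95, 12.33 and 12.22 in CD4 AZA. The treated arrays were all lower, and Pgk1 fell 1.59-fold (-0.67, SE 0.12, adjusted p = 0.0103). Without the array CD4 AZA 1 this call was lost (adjusted p = 0.0538), and under the other 20 alternatives it stood. The other 4 measured genes of lower glycolysis did not pass and had differences below 0: pyruvate kinase Pkm (12.41 ± 0.07 to 11.92 ± 0.17), the mutase Pgam1 (11.39 ± 0.10 to 11.17 ± 0.10), Gapdh (13.22 ± 0.05 to 13.06 ± 0.08) and the enolase Eno2 (7.47 ± 0.13 to 7.42 ± 0.05). A second, dimmer row of Pgam1 gave -0.01 here, against -0.22 on the brighter row. It had the other sign for AzaC in nTregs (-0.06 against 0.02) and between the populations under PBS (0.18 against -0.15). Several of these enzymes, Gapdh and Pgk1 among them, have processed pseudogenes of near-identical sequence in the mouse genome, so a part of their signal on an array may come from copies, which was not tested.

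At the fate of pyruvate, Pdk1, the kinase that closes the pyruvate dehydrogenase gate to the mitochondria, had log2 signals of 9.75, 9.71 and 10.08 in CD4 PBS. In CD4 AZA they were 8.85, 9.11 and 9.15, all lower. Pdk1 fell 1.75-fold (-0.81, SE 0.19), at an adjusted p = 0.0499 that lay at the threshold and was lost under 10 of 21 alternatives, 9 of them leaving out a single array. Ldha, the lactate dehydrogenase subunit that turns pyruvate into lactate, was 7.79, 7.75 and 7.96 with PBS and 7.93, 7.87 and 7.53 with AzaC. Those arrays overlapped. By mean signal the only row of Ldha stood at percentile 63.7 of all genes. Gapdh stood at 99.9 and Pkm at 99.2, but Hk2 at 62.2 and Eno2 at 61.5. How well that row reads Ldha was not tested, so a missing call does not show that Ldha was unchanged. The lactate carriers Slc16a1 (8.66 ± 0.10 to 8.78 ± 0.03) and Slc16a3 (8.21 ± 0.27 to 7.99 ± 0.13) did not pass either.

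For HIF-1α, the direction was the opposite. The log2 signal of Hif1a was 11.11, 11.12 and 11.20 in CD4 PBS and 11.38, 11.50 and 11.36 in CD4 AZA. The treated arrays were all higher, by 0.27 (SE 0.09), and did not pass (adjusted p = 0.178). A second, dimmer row of Hif1a gave the other sign, -0.57, and did not pass either. The oxygen sensors Egln1 (PHD2) and Egln3 (PHD3) hydroxylate HIF-1α for destruction and are themselves known HIF-1 targets. Egln1 went from 9.29 ± 0.14 to 8.75 ± 0.28 (-0.54, adjusted p = 0.0761) and Egln3 from 9.56 ± 0.57 to 8.79 ± 0.25 (-0.77, adjusted p = 0.230), each without overlap.

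Of the 9 other hypoxia-induced genes measured, P4ha2 fell and 7 had groups that did not overlap with the AzaC arrays lower. P4ha2 encodes a catalytic subunit of the prolyl hydroxylase of collagen. Its log2 signal was 8.62, 8.63 and 8.86 in CD4 PBS and 7.25, 7.59 and 7.62 in CD4 AZA, the groups more than 1 log2 unit apart at their closest. It fell 2.33-fold (-1.22, SE 0.12, 95% interval -1.48 to -0.95, adjusted p = 0.000169), and its call held under all 21 alternatives. The related subunit P4ha1 had 9.24, 9.54 and 10.14 with PBS and 8.98, 8.88 and 9.01 with AzaC (-0.68, adjusted p = 0.0943). Ndrg1, a widely used hypoxia marker, had 9.74, 9.97 and 10.01 with PBS and 8.64, 9.18 and 9.05 with AzaC, and missed the threshold narrowly (-0.95, adjusted p = 0.0504). Vegfa, the vascular growth factor, gave -0.84 (adjusted p = 0.0696), Ak4, a mitochondrial adenylate kinase, -0.66 (adjusted p = 0.113), the mitophagy receptor Bnip3 -0.42 (adjusted p = 0.202) and the histone demethylase Kdm3a -0.27 (adjusted p = 0.316). The repressor Mxi1 stood at 7.71 ± 0.11 and 7.77 ± 0.11, and Bhlhe40, a repressor induced by activation and hypoxia, was higher by 0.45 without passing.

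How many of these differences passed depended on 1 array of the other population, because the fit shares its spread over all 4 groups. Without nTreg PBS 1, whose removal leaves the CD4 differences as they are, 14 of the 32 genes were lower at the threshold, against 4.71% of all genes in either direction. The 10 added were Slc2a3, Pfkl, Pfkm, Tpi1, Pkm, Egln1, Ak4, P4ha1, Vegfa and Ndrg1. At an unadjusted p under 0.05 there were then 20 of the 32, against 20.6% of all genes. Without CD4 AZA 1 the count of lower genes was 2, where 0.739% of all genes were called in either direction, and without CD4 PBS 3, the highest array of its group for 27 of the 32 genes (38.9% of all genes had it highest), it was 3, where 0.96% of all genes were called.

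**Figure D2:**
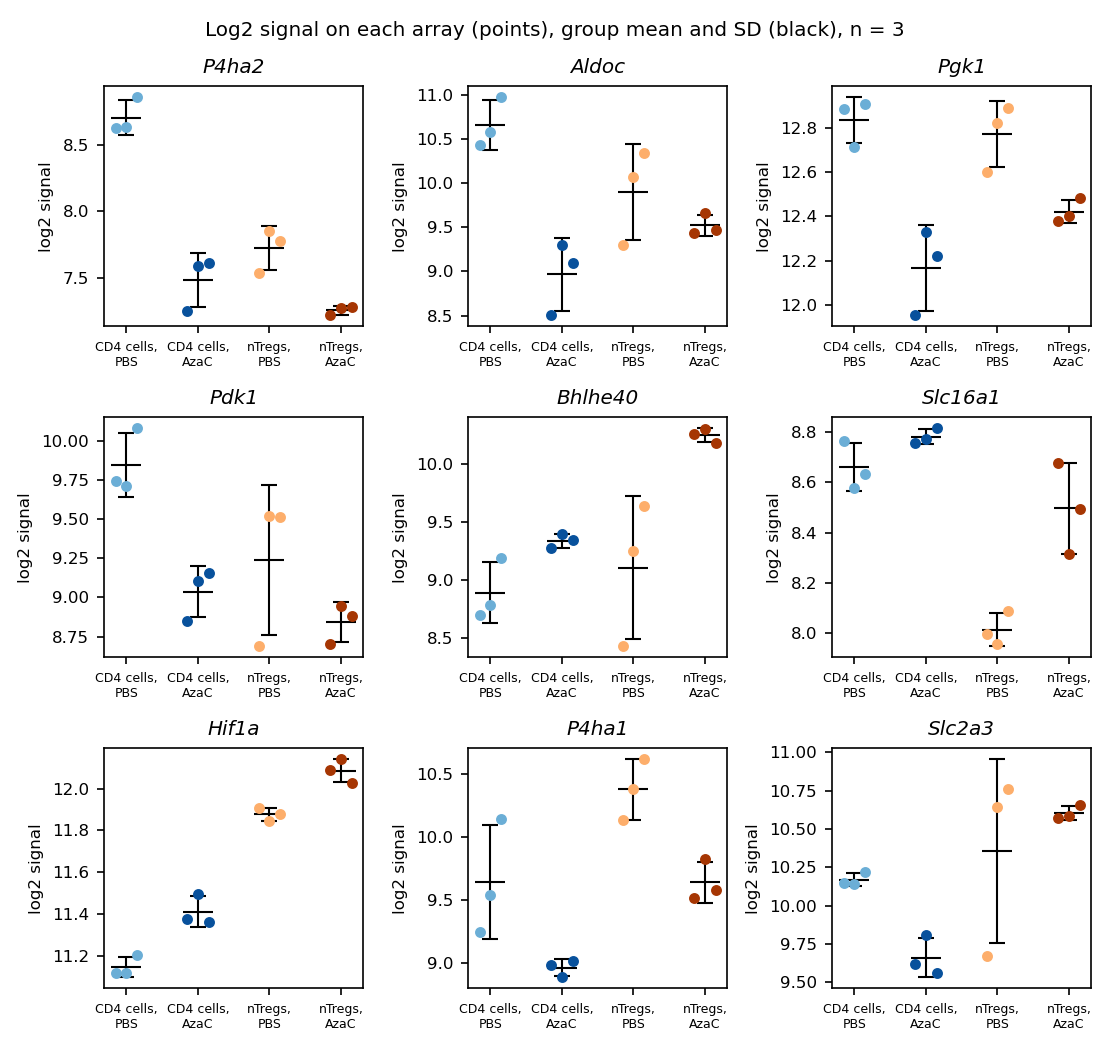
Log2 signal of selected genes on every array, 1 panel per gene and 1 column of points per group, with black bars at the group mean and its SD (n = 3). P4ha2 and Aldoc are lower on all 3 CD4 AZA arrays than on the CD4 PBS arrays, Bhlhe40 is highest in nTreg AZA, and Hif1a is higher in both nTreg groups than in both CD4 groups.

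The same question was asked of nTregs. With AzaC 2 of the 32 genes rose, Bhlhe40 and Slc16a1, and none fell, where 2.02% of all genes were called, 1.42% higher and 0.600% lower. The signs were even, 16 above and 16 below 0, with a median of 0.00 against -0.04 for all genes. Below the unadjusted threshold stood 9 of the 32, against 16.8% of all genes. In 3 genes the groups did not overlap with the AzaC arrays higher, and in 5 with them lower, against 11.0% and 13.5% of all genes. Beside these values stand the marker genes that moved between the same arrays: the 2 CD8 genes and Eomes rose, Itgam fell, and the myeloid, NK, erythroid and T cell sums did not overlap. The NK sum was higher with AzaC although 3 of its 5 genes were lower.

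Bhlhe40 had log2 signals of 8.42, 9.25 and 9.64 in nTreg PBS and of 10.27, 10.31 and 10.19 in nTreg AZA. The treated arrays lay close together and above a spread of more than 1 log2 unit in the untreated ones. It rose 2.22-fold (1.15, SE 0.23, adjusted p = 0.0177), by 0.81 without nTreg PBS 1 (adjusted p = 0.0117). The call was lost when any nTreg AZA array was left out or only the 6 nTreg arrays were fitted, with adjusted p up to 0.131.

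Slc16a1 (MCT1), the carrier that moves lactate across the membrane, had log2 signals of 8.0, 7.96 and 8.09 in nTreg PBS and of 8.68, 8.32 and 8.49 in nTreg AZA. The groups did not overlap, and the gene rose 1.40-fold (0.48, SE 0.11, adjusted p = 0.0353). The call was lost under 11 of 21 alternatives, with adjusted p up to 0.153, and the difference stayed between 0.39 and 0.57.

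No glucose transporter and no enzyme of upper or lower glycolysis passed in nTregs, and some had PBS arrays that spread widely. The PBS arrays of Pkm, for example, had an SD of 0.81 about a mean of 11.92, and the AzaC arrays stood at 12.15 ± 0.05. Its single PBS values were 10.99 on nTreg PBS 1 and 12.38 and 12.40 on the others. The Pkm difference was 0.23 with all arrays and -0.23 without nTreg PBS 1, and passed in neither fit. Hk2, the inducible hexokinase, went from 7.58 ± 0.41 to 8.11 ± 0.12 and did not pass (0.53, adjusted p = 0.186). Pgk1 was 12.60, 12.82 and 12.89 with PBS and 12.38, 12.40 and 12.48 with AzaC, all lower but short of the threshold (-0.35, adjusted p = 0.162). Aldoc, at 9.30, 10.07 and 10.34 with PBS and 9.44, 9.66 and 9.47 with AzaC, overlapped.

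Besides Pgk1, 4 genes had nTreg AZA arrays that all lay below the nTreg PBS arrays, and none of them passed. P4ha1 had 10.14, 10.39 and 10.62 with PBS and 9.51, 9.82 and 9.58 with AzaC (-0.74, adjusted p = 0.0632). P4ha2 had 7.54, 7.85 and 7.78 with PBS and 7.22, 7.28 and 7.28 with AzaC (-0.47, adjusted p = 0.0729). Egln1 gave -0.53 (adjusted p = 0.0766) and Bnip3 -0.40 (adjusted p = 0.196). Hif1a was 11.91, 11.84 and 11.88 with PBS and 12.09, 12.14 and 12.03 with AzaC, all higher and not past the threshold (0.21, adjusted p = 0.262), with its second row again of the other sign (-0.83, not passed).

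Without nTreg PBS 1, the count in nTregs became 1 higher and 4 lower, against 1.85% of all genes. Bhlhe40 was the gene that stayed higher, and Pdk1 (-0.67), P4ha1 (-0.86), P4ha2 (-0.56) and Ndrg1 (-0.79) were then lower. The number of genes with a difference below 0 went from 16 to 26 and the median from 0.00 to -0.20, where that of all genes was -0.03. At an unadjusted p under 0.05 there were 14 of the 32, against 13.7% of all genes. The AzaC arrays then lay below the 2 remaining PBS arrays in 19 genes, as in 4432 of all 22180 genes, and above them in 3, against 16.5%. The balance of signs in nTregs was thus not the same with and without that array.

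**Figure D3:**
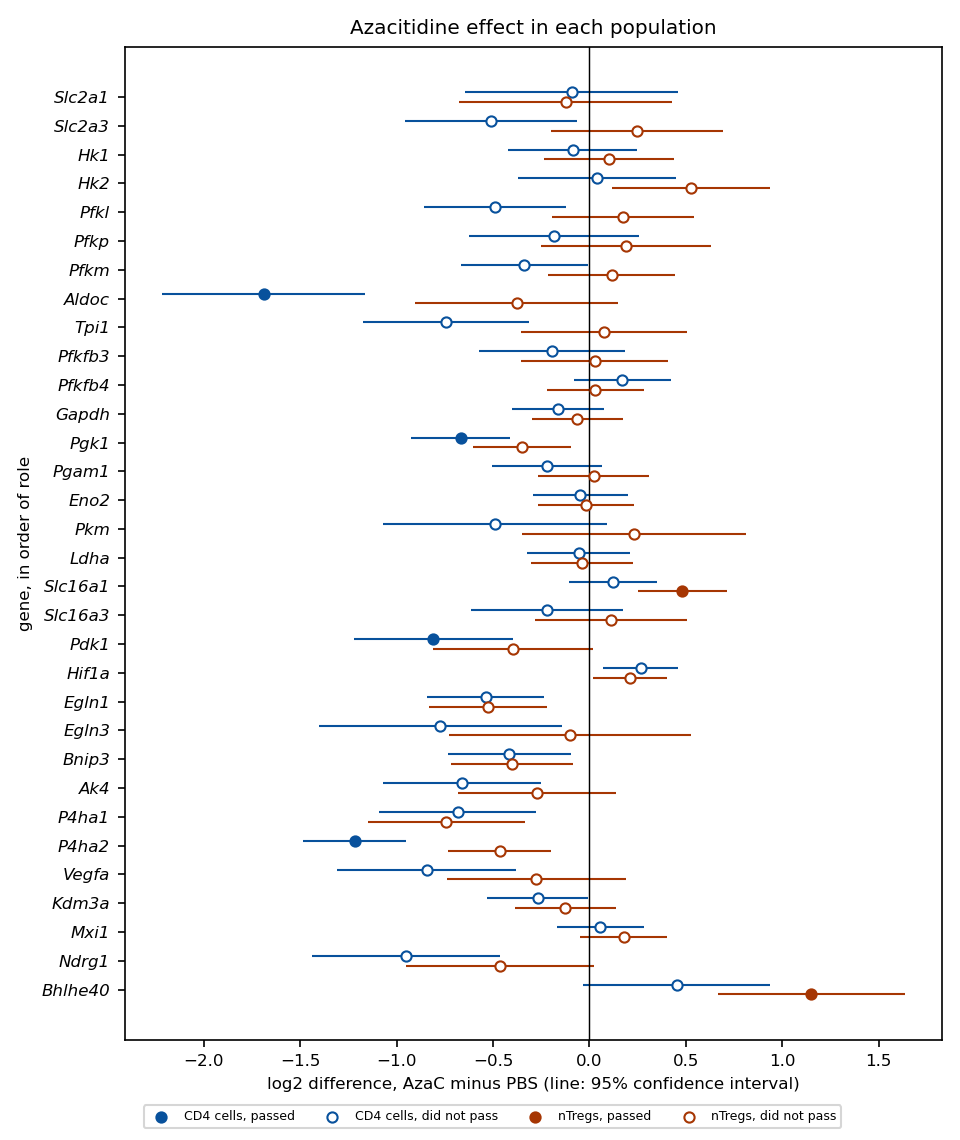
Log2 difference, AzaC minus PBS, of each of the 32 genes in CD4 cells (blue) and nTregs (orange-brown), with lines for the 95% interval; filled points passed the adjusted threshold. Filled points lie below 0 for 4 genes in CD4 cells and above 0 for 2 genes in nTregs.

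Whether AzaC acted differently in the populations was tested as the difference between their effects. None of the 32 genes passed in limma, where 0.203% of all genes did (0.144% higher and 0.0586% lower); 7 of the 32 stood at an unadjusted p under 0.05, against 17.5% of all genes. The nTreg difference was above the CD4 difference for 28 of the 32 genes, with a median of 0.35 against -0.04 for all genes, and for 22 without nTreg PBS 1, with a median of 0.11. P4ha2 had the smallest p: it was lower by 1.22 in CD4 cells and by 0.47 in nTregs, a difference of 0.75 (95% interval 0.38 to 1.13, adjusted p = 0.111). For Aldoc the difference was 1.31 (95% interval 0.57 to 2.06, adjusted p = 0.151). Tpi1 (0.82), Slc2a3 (0.76), Pfkl (0.67), Bhlhe40 (0.70) and Slc16a1 (0.36) were the others below the unadjusted threshold. Leaving out nTreg PBS 1 left 6 below it, against 16.3% of all genes, and the differences were 0.66 for P4ha2, 1.01 for Aldoc, 0.52 for Tpi1, 0.41 for Slc2a3, 0.43 for Pfkl, 0.36 for Bhlhe40 and 0.35 for Slc16a1. At the other end, Egln1 gave 0.01 and Ldha, on its row of modest signal, 0.02, with effects side by side in both populations.

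The populations were then compared directly, first under PBS. Of the 32 genes 3 were higher in nTregs (Hif1a, P4ha1 and Bnip3) and 2 lower (P4ha2 and Slc16a1), where 8.01% of all genes were called, 3.90% higher and 4.12% lower. The median difference was -0.07 against 0.03 for all genes, and 13 of the 32 had an unadjusted p under 0.05, against 23.0% of all genes. In 3 genes the nTreg arrays all lay above the CD4 arrays and in 7 below, against 13.5% and 13.2% of all genes. Among markers of other cells Cd79b (0.80) was higher and Eomes (-0.73) lower in nTregs. The 7 B cell genes measured had a median of 0.04, with 5 above 0 and 2 below. For the 5 NK and gamma-delta T cell genes the median was -0.01, with 2 above 0 and 3 below. Several summed marker levels did not overlap between nTreg PBS and CD4 PBS. The B cell sum was 9.52 to 9.68 against 9.34 to 9.38, and the NK sum 9.275 to 9.407 against 9.512 to 9.593. The myeloid sum was 9.871 to 10.015 against 9.750 to 9.862, with 10 of 12 genes above 0. The erythroid sum was 9.61 to 9.68 against 9.54 to 9.60. The part of these markers was not tested. This comparison shares the PBS arrays with the effects of AzaC given above.

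Hif1a was 1.66-fold higher in nTregs, at 11.91, 11.84 and 11.88 against 11.11, 11.12 and 11.20 in CD4 cells. The groups lay far apart against their own spread, and the difference was 0.73 (SE 0.09, adjusted p = 0.000171). The second row of Hif1a gave 0.41 and did not pass; the call on the mean of both rows held. P4ha1 was 1.67-fold higher (0.74, SE 0.19, adjusted p = 0.0280), though the lowest nTreg array and the highest CD4 array were both at 10.14 and counted as overlapping. Bnip3 stood at 8.84, 8.62 and 9.21 in nTregs and 8.18, 8.28 and 8.65 in CD4 cells (0.52, adjusted p = 0.0463). These groups overlapped, and the Bnip3 call was lost under 12 of 21 alternatives, with adjusted p up to 0.199; that of P4ha1 was lost under 6.

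The related subunit P4ha2 went the other way from P4ha1. With PBS it was 1.97-fold lower in nTregs, at 7.54, 7.85 and 7.78 against 8.62, 8.63 and 8.86 (-0.98, SE 0.12, adjusted p = 0.000206). Slc16a1 was 1.56-fold lower, at 8.0, 7.96 and 8.09 against 8.77, 8.58 and 8.63 (-0.64, SE 0.11, adjusted p = 0.00189). Both calls held under all 21 alternatives. Of the measured genes of upper glycolysis 6 of 7 had a difference below 0 with PBS, and none passed; Aldoc gave -0.76 (adjusted p = 0.0782), Pfkp -0.59 (adjusted p = 0.0999) and Tpi1 -0.57 (adjusted p = 0.101). Pdk1 gave -0.61 (adjusted p = 0.0709). With nTreg PBS 1 left out these were -0.45, -0.27, -0.27 and -0.33 in the same order. The counts were then 5 higher and 2 lower, with Slc2a3, Eno2 and Bhlhe40 added above and Bnip3 lost, where 7.25% of all genes were called. The median of the 32 genes turned from -0.07 to 0.07, with 0.01 for all genes, and 13 rather than 17 were below 0. At an unadjusted p under 0.05 there were 14, against 19.0% of all genes; the nTreg arrays lay above the CD4 arrays in 9 genes and below in 7, against 18.8% and 18.5% of all genes.

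With AzaC 6 of the 32 genes were higher in nTregs and none lower, where 6.75% of all genes were called, 4.57% higher and 2.19% lower: Hif1a, Slc2a3, Bhlhe40, Mxi1, P4ha1 and Bnip3. The median was 0.24 against -0.04 for all genes. The nTreg arrays all lay above the CD4 arrays in 18 genes, against 15.1% of all genes, and below them in 2, against 17.2%. At an unadjusted p under 0.05 stood 13 of the 32, against 20.5% of all genes. Without nTreg PBS 1, which is in neither group, 11 were higher and none lower, against 11.1% of all genes, and 15 had an unadjusted p under 0.05, against 25.8%. Leaving out CD4 AZA 1, an array of this comparison, left 1 higher and none lower, where 4.04% of all genes were called. The median was then 0.155, against -0.03 for all genes. Among markers of other cells Cd8a (1.36), Cd8b1 (1.27) and the B cell gene Cd79b (1.08) were higher in nTregs. The 7 B cell genes measured had a median of -0.02, with 3 above 0 and 4 below. Their summed level was 9.45 to 9.65 in nTreg AZA and 9.21 to 9.39 in CD4 AZA, without overlap.

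Slc2a3 had log2 signals of 10.57, 10.59 and 10.65 in nTreg AZA and of 9.62, 9.81 and 9.56 in CD4 AZA. It was 1.92-fold higher (0.94, SE 0.21, adjusted p = 0.0128), while Slc2a1, the other glucose transporter, gave 0.14 and did not pass. The Slc2a3 call was lost under 3 of 21 alternatives, each leaving out 1 AzaC array. Hif1a was again higher, at 12.09, 12.14 and 12.03 against 11.38, 11.50 and 11.36 (0.68, SE 0.09, adjusted p = 0.000301). Its call was lost when its 2 rows were averaged (0.41, adjusted p = 0.133).

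Bhlhe40 was 1.88-fold higher, at 10.27, 10.31 and 10.19 against 9.28, 9.40 and 9.35 (0.91, adjusted p = 0.0248). Mxi1, a repressor of the Myc network, stood at 8.26, 8.22 and 8.05 against 7.64, 7.84 and 7.81 (0.41, adjusted p = 0.0295). Its second row gave 0.16 here and -0.08 under PBS. P4ha1 stood at 9.51, 9.82 and 9.58 against 8.98, 8.88 and 9.01 (0.68, adjusted p = 0.0446), and Bnip3 at 8.5, 8.41 and 8.55 against 7.95, 7.94 and 7.97 (0.53, adjusted p = 0.0453). In all 4 genes the groups were apart, and each call was lost under 5 to 9 of the 21 alternatives. Slc16a1, lower in nTregs with PBS, gave -0.29 with AzaC and did not pass (adjusted p = 0.143).

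**Figure D4:**
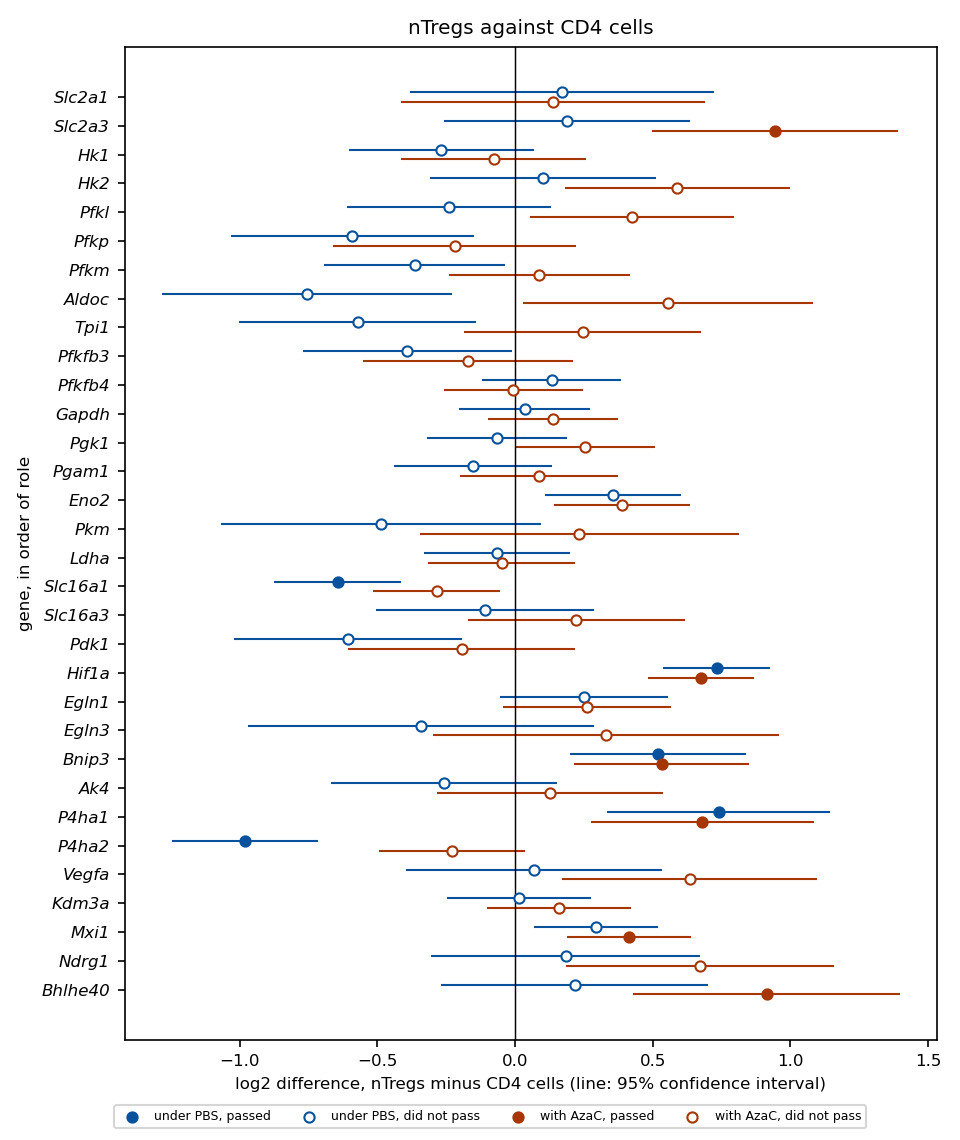
Log2 difference, nTregs minus CD4 cells, of each of the 32 genes under PBS and with AzaC, with lines for the 95% interval; filled points passed the adjusted threshold. Hif1a, P4ha1 and Bnip3 lie above 0 in both conditions, and P4ha2 and Slc16a1 are filled below 0 under PBS.

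Averaged over the 32 genes, the log2 signal was 9.49 to 9.78 in CD4 PBS, 9.13 to 9.31 in CD4 AZA, 9.14 to 9.80 in nTreg PBS and 9.46 to 9.52 in nTreg AZA. The CD4 AZA arrays thus lay below all CD4 PBS and all nTreg AZA arrays. The 3 nTreg PBS arrays spanned 0.66, the widest range of the 4 groups, with nTreg PBS 1 at the low end, and the 3 nTreg AZA arrays spanned 0.07. The 20 measured genes of glycolysis and its transporters averaged 9.85 ± 0.12 (SD, n = 3) in CD4 PBS, 9.51 ± 0.08 in CD4 AZA, 9.63 ± 0.38 in nTreg PBS and 9.68 ± 0.02 in nTreg AZA. The 12 HIF and hypoxia-induced genes averaged 9.21 ± 0.20, 8.75 ± 0.12, 9.33 ± 0.30 and 9.18 ± 0.08 in the same order.

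**Figure D5:**
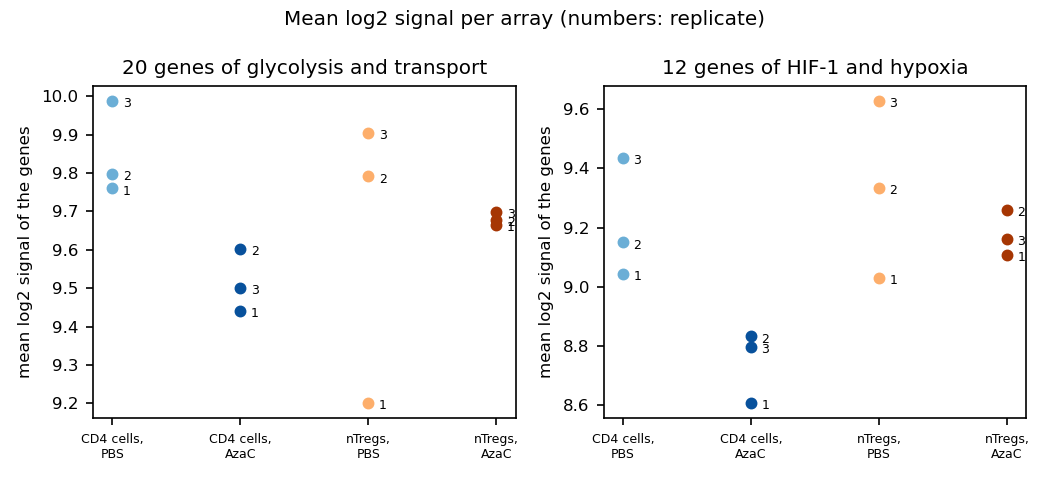
Mean log2 signal on each array of the 20 genes of glycolysis and its transporters and of the 12 HIF and hypoxia-induced genes, by group. The CD4 AZA arrays are low in both sets, and nTreg PBS 1 lies below the other 2 arrays of its group.

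Other genes of the same pathways were read from lists drawn up by function. Of 44 further hypoxia-induced genes measured, 5 fell with AzaC in CD4 cells and none rose, with a median of -0.17, where 0.933% of all genes were lower: Gbe1, the glycogen branching enzyme (-0.77, adjusted p = 0.00443), Insig2, a brake on sterol synthesis (-0.59), Rragd, a GTPase that signals amino acids to mTORC1 (-0.71), the transcription factor Nfil3 (-0.52) and 1 more, Anxa2, named although its p was the largest of the 5. In nTregs 2 rose, Adm, the peptide adrenomedullin (1.16), and Plin2, a lipid droplet coat protein (0.66), and 2 fell, Gbe1 (-0.74) and the chemokine receptor Cxcr4 (-0.58), against 1.42% higher and 0.600% lower among all genes. Of the same 44 genes 11 were higher and 1 lower in nTregs with PBS, led by Tmem45a (1.15), Gbe1 (0.91), Nfil3 (0.80) and Rragd (0.73), against 3.90% higher and 4.12% lower among all genes. With AzaC 9 were higher and 1 lower, led by Rragd (1.97), Nfil3 (1.13), Tmem45a (1.06) and Gbe1 (0.93), against 4.57% and 2.19%. Without nTreg PBS 1 the counts were 0 higher and 9 lower for AzaC in CD4 cells, 0 and 4 in nTregs, 14 and 1 between the populations under PBS, and 13 and 1 with AzaC. In that fit 1.66% of all genes were higher and 3.05% lower for AzaC in CD4 cells, and 1.14% and 0.712% in nTregs. Between the populations the shares were 3.83% and 3.42% under PBS, and 7.2% and 3.93% with AzaC. Gbe1 therefore fell in both populations, from 7.93 ± 0.16 to 7.16 ± 0.13 in CD4 cells and from 8.84 ± 0.18 to 8.10 ± 0.07 in nTregs.

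Of 15 regulators of the HIF pathway measured, 1 fell with AzaC in CD4 cells (0.933% of all genes did) and none passed in nTregs. In nTregs 6 of the 15 had AzaC arrays that all lay above the PBS arrays (11.0% of all genes did). Epas1, which encodes HIF-2α, the second oxygen-regulated subunit, stood at 9.42 ± 0.17 in CD4 PBS and 8.23 ± 0.01 in CD4 AZA (-1.19, adjusted p = 0.000885). In nTregs it was 8.06 ± 0.32 and 8.24 ± 0.17. With PBS it was lower in nTregs by 1.36, opposite in sign to Hif1a, and Cited2, a competitor of HIF for its coactivators, was higher by 0.40. Of all genes 4.12% were lower and 3.90% higher there. With AzaC only Arnt2 among the 15 differed between the populations, higher in nTregs by 0.81, where 4.57% of all genes were higher. Without nTreg PBS 1 the count with AzaC was 3 of the 15 higher, against 7.2% of all genes.

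The other 19 glycolytic isozymes and branch enzymes measured gave no call for AzaC in either population. With PBS Eno3 and Ldhb were higher in nTregs and Bpgm lower, and with AzaC Eno3 and the transporter Slc2a6 were higher. Of all genes 3.90% were higher and 4.12% lower in nTregs with PBS, and 4.57% and 2.19% with AzaC. The same shares apply to the population calls of the next 2 lists with all arrays. Leaving out nTreg PBS 1 gave 2 of the 19 higher and none lower under PBS, against 3.83% and 3.42% of all genes. Among 14 genes of pyruvate entry to mitochondria, none passed for AzaC. With PBS Me1 and Pdp1 were higher and Me2 lower in nTregs, and with AzaC none differed. When nTreg PBS 1 was left out, 1 of the 14 was lower for AzaC in CD4 cells, against 3.05% of all genes. Between the populations 1 was then higher and none lower under PBS, and 2 were higher with AzaC, where 3.83% and 7.2% of all genes were higher. Among 8 genes of the pentose phosphate pathway Prps2 was higher and Taldo1 lower in nTregs with PBS, and none passed elsewhere. With nTreg PBS 1 left out, none of the 8 passed in any comparison. Of 21 regulators of glycolytic gene expression 1 was called higher in each of 3 comparisons, Arrdc4, a relative of Txnip that restrains glucose uptake. It rose with AzaC in nTregs from 8.08 ± 0.19 to 9.21 ± 0.23 (1.13, adjusted p = 0.00245). Arrdc4 was also higher in nTregs by 0.64 with PBS and by 1.73 with AzaC. The shares of all genes called higher were 1.42%, 3.90% and 4.57% in that order, and 1 of 21 is close to the last 2. Myc did not pass in any comparison.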

How the data were processed

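RNA of 12 sorted T cell samples was measured on Affymetrix arrays after labelling with the WT Pico kit, per the labels' protocols. The authors deposited log2 signals. Per the submitters' processing notes these were made by RMA, run in the software Affymetrix Expression Console; versions and the genome build are not given in the sources used here. RMA shares 1 background and quantile step over the arrays, so values are relative and background could not be corrected anew. The table has 41345 rows: 23521 name 1 gene, 1814 several and 16010 none, by the platform annotation. Each of 22180 genes was represented by its brightest row.

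With limma 3.58.1 (R 4.3.3), 1 linear model of the 4 group means took in every array, leaving 8 residual degrees of freedom, and 5 contrasts were tested with empirical Bayes; p-values were adjusted by Benjamini-Hochberg over all genes and called under 0.05. Differences are on the log2 scale and intervals are 95%. The 3 arrays per group limit the precision; the median standard error was 0.13. The fit was tested on simulated data. Genes with a call in a contrast are given with each array's value in the groups of that contrast. The others are given mostly by means, counts and ranges. From other lists up to 4 called genes per contrast are named (Anxa2, the last of 5, was named after its values were seen). The genes and lists were chosen with earlier results of these data known. Alternatives covered a dim-gene filter, centring, repeated quantile normalization, averaged rows, fits of only the groups compared, a replicate block, array weights, a robust variance trend and leaving out arrays. Promoters came from RefSeq (GRCm38.p6) and were matched by gene.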

Additional observations from a re-analysis of the deposited data

Results flagged for a closer look

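Epas1, the gene of HIF-2α, differed between the populations in its response to AzaC: it fell by 1.19 in CD4 cells and gave 0.18 in nTregs, a difference of 1.37 (limma, adjusted p = 0.0198). That call was lost when any of 7 single arrays was left out, with adjusted p up to 0.0731.

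Rragd, a GTPase of amino acid signalling to mTORC1, differed by 1.24 in the same test (adjusted p = 0.0356), with a fall of 0.71 in CD4 cells and a value of 0.53 in nTregs. It lost its call without any of 8 single arrays and without nTreg PBS 1 and CD4 PBS 3 together, with adjusted p up to 0.125. Neither gene is among the 32 described; groups of 3 arrays were not searched for single outlying samples.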

How the results depend on the processing

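Of 21 alternatives, 1 of them chosen after seeing the data, none reversed a called result. The calls of P4ha2 and Aldoc with AzaC in CD4 cells and of Hif1a, P4ha2 and Slc16a1 between populations under PBS stood under all 21. Leaving out 1 array at a time gave 2 to 14 of the 32 genes lower with AzaC in CD4 cells (164 to 1044 of all genes called), 0 to 2 higher and 0 to 4 lower in nTregs (186 to 447), 9 to 69 of all genes for the difference between the effects, 1 to 5 higher and 2 to 7 lower in nTregs under PBS (1042 to 1862), and 1 to 11 higher and 0 lower with AzaC (896 to 2467). Without nTreg PBS 1 and CD4 PBS 3 together, which is that alternative, nTregs had 1 gene higher and 4 lower with AzaC (533 of all genes). CD4 cells had 1 higher and 9 lower (678 of all genes), and the difference between effects had 77 of all genes. For nTregs against CD4 cells 7 were higher under PBS (1342) and 12 higher with AzaC (2972). Array weights gave 7 lower in nTregs (1290 of all genes), 1 higher and 11 lower in CD4 cells (1291), 401 for the difference, 7 higher under PBS (2528), and with AzaC 11 higher against 1 lower (3500). Fitting only the groups compared gave 0 higher in nTregs (125), 8 lower in CD4 cells (396), 1 higher under PBS (648) and 11 higher with AzaC (2350). Repeated quantile normalization gave 1 higher and 2 lower in nTregs (432). Centring the arrays gave 91 of all genes for the difference, and 1 of the 32 higher under PBS (1689). The causes of these moves were not tested.

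Over 18 same-numbered pairs of arrays the correlation of deviations from the group means ran from -0.10 to 0.19, above 0.1 in 3. Differently numbered arrays were not correlated as a reference, so these values cannot decide whether the replicate numbers pair the arrays. With a replicate block 2 of the 32 genes were lower with AzaC in nTregs (451 of all genes called) and 7 in CD4 cells (380). Between the populations 4 were lower in nTregs under PBS (1826), and 9 were higher with AzaC (1434). In a fit of all 41345 rows, also chosen after seeing the data, where p-values are adjusted over more tests, 9 calls were lost: with AzaC Bhlhe40 (adjusted p = 0.0812) and Slc16a1 (adjusted p = 0.0908) in nTregs and Pdk1 (adjusted p = 0.141) in CD4 cells; between the populations P4ha1 (adjusted p = 0.0780) and Bnip3 (adjusted p = 0.105) under PBS, and Bhlhe40 (adjusted p = 0.0800), Mxi1 (adjusted p = 0.0605), P4ha1 (adjusted p = 0.116) and Bnip3 (adjusted p = 0.108) with AzaC. With 3 arrays per group, a difference that missed the threshold is not shown to be absent.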

Other observations

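Hif1a had a second row in the table, dimmer than the first, whose differences with AzaC were -0.83 in nTregs and -0.57 in CD4 cells, where the brighter row gave 0.21 and 0.27; neither row passed for AzaC. Between the populations the second row gave 0.41 under PBS and 0.15 with AzaC, the same sign as the brighter row, and did not pass. Which transcripts the rows read is not given in the files used here.

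Members of the collagen prolyl hydroxylase pair had unlike patterns: P4ha1 was higher in nTregs than in CD4 cells under PBS (0.74) and with AzaC (0.68), while P4ha2 was lower under PBS (-0.98) and gave -0.23 with AzaC, without passing.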
